A study of Homo sapiens with 6 samples.

Results

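The genes described here are 10 members of the NF-kappaB system of KG1a cells, taken by exact gene symbol from 20046 genes named on the array. They comprise 5 subunits of the transcription factor (NFKB1, NFKB2, REL, RELA and RELB), 3 feedback inhibitors (NFKBIA, NFKBIE and TNFAIP3) and 2 target genes (EBI3 and SOD2). All their probes were used, 15 in total. The members were chosen with the difference between 7l and control cells already known, so that difference is given for them as a description and nothing is supported with it. KG1a is a human cell line from acute myeloid leukaemia whose cells stay immature and carry CD34. Cells exposed for 24 h to 2 µM of 7l (3 Illumina arrays), a compound for which the labels give only a code, were compared with control cells (3 arrays), for which no vehicle or culture time is stated. Both groups are of 1 cell line, grown in RPMI medium with heat-inactivated serum, and no genotype or further agent is named for either. Whether replicates were separate cultures is not stated, so errors and p-values cover the spread among these 6 arrays only, which may be technical.

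NF-kappaB proteins act as dimers that IkappaB proteins hold in the cytoplasm. Kinases of the IKK complex mark the IkappaB protein for destruction, the dimer enters the nucleus, and among the genes it switches on are those of its own inhibitors and of several subunits. In myeloid cells and their leukaemias the pathway is known for cytokine production and cell survival. Arrays measure transcripts only, so neither the amount of nuclear NF-kappaB nor its binding to DNA was measured. In RNA from whole cultures, fewer cells of a type and less RNA per cell cannot be told apart.

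The sequences upstream of these genes are shown because dimers bind short kappaB sites there and several members are themselves textbook targets. Promoter windows of 8 of the 10 members were found in the RefSeq promoter table (GRCh38.p14), and RELB and NFKBIE are named only. The 250 bases before the annotated start were searched on both strands for the kappaB consensus, a pattern of 10 letters given here by its name. The 5 windows below are written 5′ to 3′ on the gene's strand, with kappaB matches in capitals. For NFKB1 the first of 2 annotated starts is shown, and the window of its second start held no match. Each of the 5 windows shown holds a match. Windows without a match are not shown, and neither are the 2 NFKB2 windows that hold matches.
EBI3 (chr19:4229273-4229522, plus strand): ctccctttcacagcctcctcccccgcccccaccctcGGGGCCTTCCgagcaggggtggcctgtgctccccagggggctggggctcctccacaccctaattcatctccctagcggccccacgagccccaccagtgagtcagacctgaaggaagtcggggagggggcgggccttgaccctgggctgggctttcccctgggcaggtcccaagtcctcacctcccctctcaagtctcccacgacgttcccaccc
NFKBIA (chr14:35404750-35404999, minus strand): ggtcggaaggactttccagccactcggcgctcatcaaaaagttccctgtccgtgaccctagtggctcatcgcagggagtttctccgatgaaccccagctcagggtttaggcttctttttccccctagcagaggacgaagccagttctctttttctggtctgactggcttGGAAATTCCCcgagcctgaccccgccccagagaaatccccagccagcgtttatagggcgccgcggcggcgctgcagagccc
TNFAIP3 (chr6:137867009-137867258, plus strand): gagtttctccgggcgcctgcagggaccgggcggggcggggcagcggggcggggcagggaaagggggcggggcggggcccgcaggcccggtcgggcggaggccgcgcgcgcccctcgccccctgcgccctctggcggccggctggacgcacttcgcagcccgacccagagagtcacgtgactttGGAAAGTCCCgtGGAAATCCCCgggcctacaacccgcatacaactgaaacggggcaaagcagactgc
NFKB1 (chr4:102501109-102501358, plus strand): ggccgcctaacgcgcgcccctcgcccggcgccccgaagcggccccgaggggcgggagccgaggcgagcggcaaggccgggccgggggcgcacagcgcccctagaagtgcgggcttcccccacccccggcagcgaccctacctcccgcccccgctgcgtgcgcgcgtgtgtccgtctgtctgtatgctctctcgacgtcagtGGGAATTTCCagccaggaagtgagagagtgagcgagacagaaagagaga
REL (chr2:60881324-60881573, plus strand): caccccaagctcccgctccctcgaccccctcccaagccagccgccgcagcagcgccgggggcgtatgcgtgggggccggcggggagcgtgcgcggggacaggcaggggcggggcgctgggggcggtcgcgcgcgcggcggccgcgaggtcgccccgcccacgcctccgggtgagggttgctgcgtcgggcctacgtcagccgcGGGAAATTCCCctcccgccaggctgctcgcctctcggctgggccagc

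Of the 8 members with a window, 6 held at least 1 kappaB match in any of their windows, against 11.8% of 27305 genes in the table. By window, 7 of 15 held a match, against 10.0% of 35116 windows, and members with several annotated starts have more windows to match in. EBI3 held 1 match far from its start, with its first base at -214. NFKBIA held 1 match at -81, TNFAIP3 held 2, at -67 and -55, and NFKB1 held 1 at -49 before the first of its 2 starts. In REL 2 overlapping matches, at -47 and -46, make up the single run of capitals. NFKB2 held matches before 2 of its 3 starts. No match was found before the 2 starts of RELA or the 4 starts of SOD2, which says only that these letters are not in these windows. The EBI3 window also held the AP-1 site TGAGTCA at -118 (searched on both strands, where its other strand reads TGACTCA), which 5.19% of genes in the table hold in any window and 0 of the other 7 members do. A match is a description of letters and not a binding site in these cells.

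**Figure D1:**
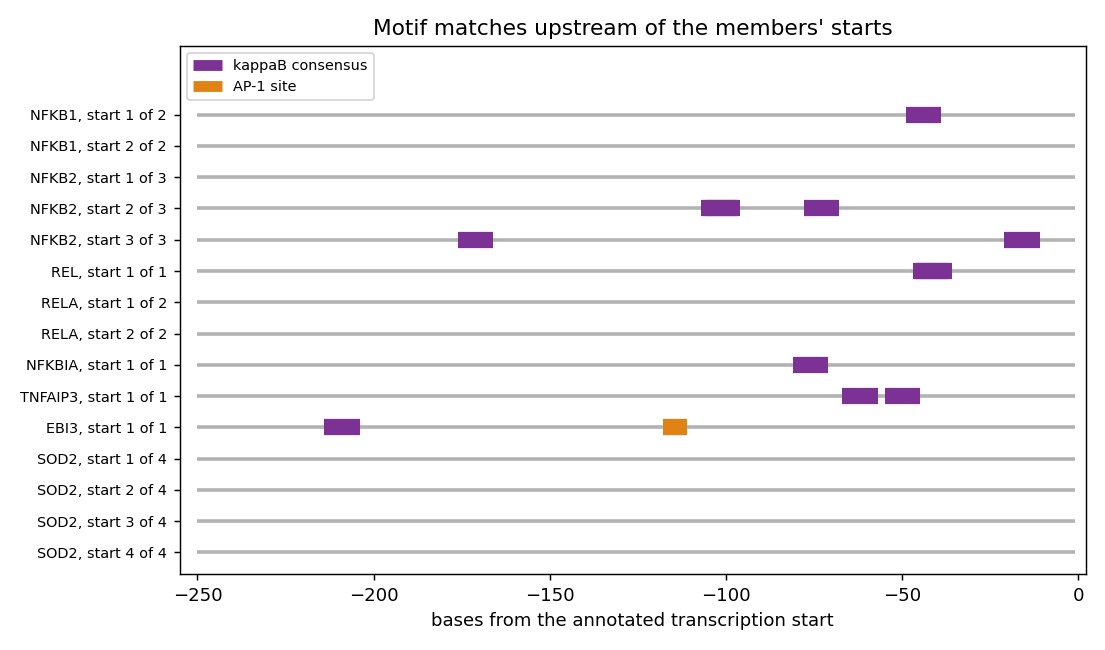
Matches to the kappaB consensus (purple) and to the AP-1 site (orange) in the 250 bases before each annotated start of 8 members, with distance from the start in bases on the horizontal axis and 1 line per window. The NFKB1, REL, NFKBIA and TNFAIP3 matches lie within 81 bases of a start, and the EBI3 match begins at -214.

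Each array gave an intensity for 47322 probes on a linear scale with a floor of 1, and the median intensity of the table was 4.95. Precision is limited by there being 3 arrays a group. An intensity of 5.49 was taken as background, the level under which lay 95% of 564 probes (by their means) for genes that blood cells hardly use (olfactory and taste receptors and keratin-associated proteins). Of 4 markers of KG1a cells (CD34, PTPRC, SPN and MYB), 4 were above background on all 6 arrays. Their summed intensity was 4067 to 4357 with 7l, against 5167 to 5293 in control cells, and most of it came from CD34 and MYB. MYB fell 1.41-fold (log2 -0.50 ± 0.08, limma adjusted p = 0.0442). CD34 measured 2264, 2394 and 2573 with 7l, against 2778, 2848 and 2855 in control cells, a log2 change of -0.23 ± 0.08 that did not pass (limma adjusted p = 0.185). SPN measured 377 to 452 with 7l, against 382 to 416 in control cells (log2 change 0.07 ± 0.10). PTPRC measured 42.5 to 47.3 with 7l, against 42.7 to 65.7 in control cells (log2 change -0.28 ± 0.18). The groups overlapped for SPN and PTPRC. Among markers of other blood cells, MPO and CEACAM8 of granulocytes, FCGR1A and MRC1 of macrophages, FCER1A of dendritic cells, PAX5 of B cells, CD3E of T cells and HBA1 of red cells were above background on 0 arrays. Others of the same lists were above background on all 6 arrays: CSF3R, CD14, CLEC9A, LAMP3, CD79A and CD3D. CSF3R measured 140 to 173 with 7l, against 160 to 185 in control cells, and CLEC9A 75.9 to 102, against 76.7 to 104. The summed intensity of 6 T cell markers was 1779 to 2117 with 7l, against 3096 to 3170 in control cells. Nearly all of it came from CD3D, which fell 1.58-fold (limma adjusted p = 0.0396). The 4 B cell markers with a probe summed to 16.6 to 37.4 with 7l, against 35.6 to 49.5 in control cells, ranges that overlap. The 6 monocyte and macrophage markers summed to 34.7 to 45.6 with 7l, against 28.4 to 29.0 in control cells, ranges that do not overlap. These sums are dim, and only 1 of the 6, CD14, was above background on all 6 arrays. CD14 measured 11.2, 15.5 and 19.1 with 7l, against 6.93, 8.43 and 11.9 in control cells, so its groups overlapped (limma adjusted p = 0.231). The sums of dendritic cell, granulocyte and red cell markers overlapped between groups. The part of these markers in the results below was not tested.

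With 7l, 8 of the 10 members measured lower and 2 higher, with a median log2 change of -0.44, against 0.01 over the 12334 genes tested. The lowest was EBI3, the shared chain of the cytokines IL-27 and IL-35, 4.34-fold lower than in control cells. SOD2, the mitochondrial superoxide dismutase, was 1.52-fold lower. The inhibitor genes TNFAIP3 and NFKBIA were 1.47-fold and 1.26-fold lower. RELA was 1.201-fold higher, and NFKB1 and NFKBIE differed by under their standard errors. A limma fit over all 12334 genes called 2.38% of them at an adjusted p under 0.05 (1.22% higher and 1.16% lower), among them the 2 members EBI3 and SOD2, both lower. All 3 arrays of 1 group lay beyond all 3 of the other for 6 of 10 members, 5 lower with 7l and 1 higher, as for 28.9% of all genes tested (13.8% lower and 15.1% higher). The members were chosen on this contrast, so their counts are no test of them, and the shares are given only for scale.

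**Figure D2:**
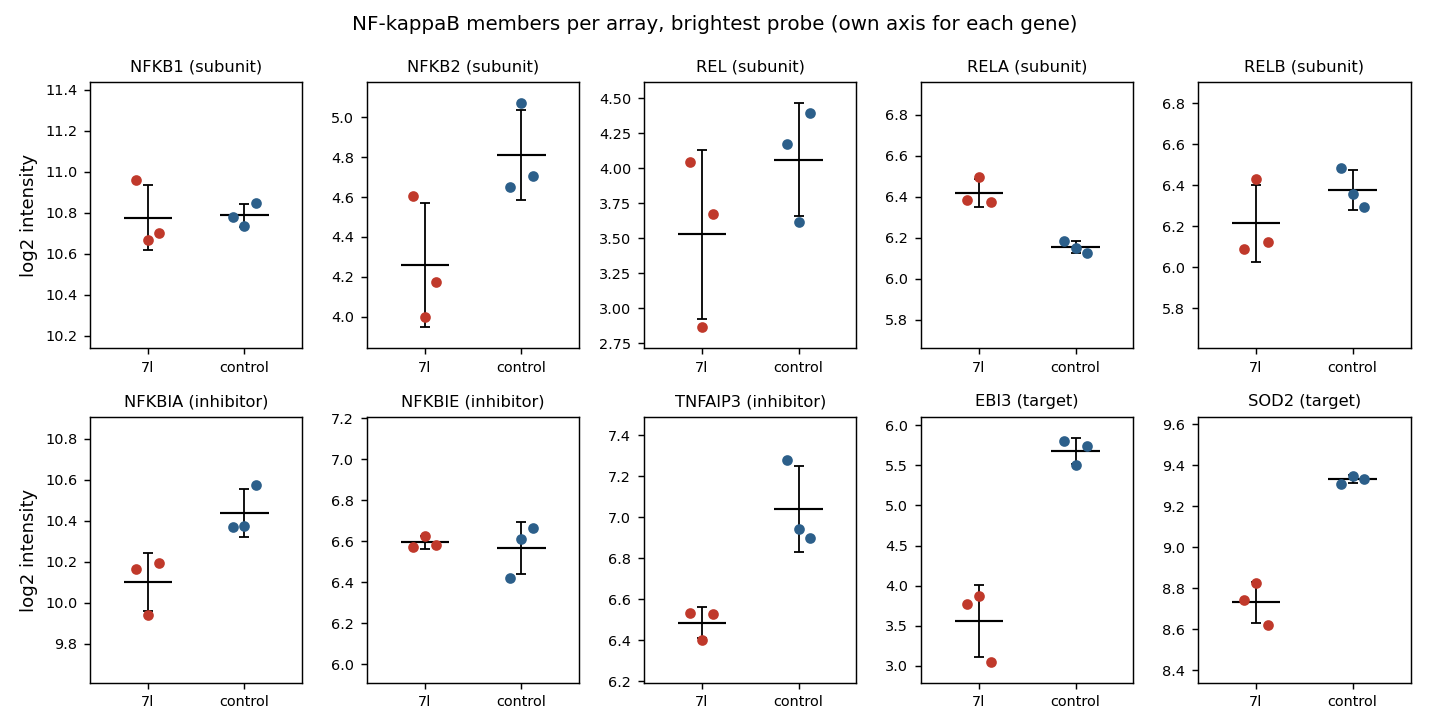
Log2 intensity of the brightest probe of each member on the 3 arrays of 7l cells (red, left) and the 3 of control cells (blue, right), with a line at the mean and bars of 1 SD, each gene on an axis of its own. The groups do not overlap for NFKB2, RELA, NFKBIA, TNFAIP3, EBI3 and SOD2, and the gap is widest for EBI3, at 8.28 to 14.6 with 7l against 45.3 to 55.7 in control cells on the linear scale.

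RELA encodes p65, the subunit that carries the transactivation domain of the most common dimer. Its probe (ILMN_1705266) gave intensities of 83.6, 90.3 and 83.0 with 7l, against 72.8, 71.0 and 69.9 in control cells. All 3 arrays of 7l cells lay above all 3 control arrays, and RELA was the 1 member of which this was so. The log2 change was 0.26 ± 0.07 (SE from the limma fit, n = 3 each), and 78.9% of all genes tested had a lower one. NFKB1 encodes p105, the precursor of the p50 subunit that pairs with p65. Its intensities were 1993, 1626 and 1668 with 7l, against 1757, 1708 and 1843 in control cells. The first array of 7l cells was the highest of the 6 and the other two the lowest, so the groups overlapped. The change of -0.01 ± 0.10 was smaller than the spread between arrays.

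NFKB2 encodes p100, the precursor of p52 and the inhibitor at the centre of the alternative pathway. Its brightest probe (ILMN_1799062) gave 24.4, 15.99 and 18.1 with 7l, against 25.1, 33.6 and 26.1 in control cells. The groups did not overlap, but the highest array of 7l cells was close to the lowest control array. The log2 change was -0.55 ± 0.20, or -0.32 with an offset of 16, which shrinks the folds of dim genes. A second probe gave 7.98, 18.5 and 24.6 with 7l, against 28.9, 25.9 and 23.7 in control cells, and here 1 array of 7l cells lay among the control arrays. The third NFKB2 probe stayed at or under background on all 6 arrays and has no order. RELB encodes the usual partner of p52. It measured 68.0, 86.2 and 69.7 with 7l, against 89.4, 81.9 and 78.4 in control cells. The second array of 7l cells lay within the control range, and the log2 change was -0.16 ± 0.12, or -0.10 without the first and -0.27 without the second array of 7l cells.

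REL encodes c-Rel, a subunit known for its role in lymphocytes. Its brightest probe measured 16.5, 7.29 and 12.7 with 7l, against 18.1, 12.2 and 21.0 in control cells. Its other probe measured 9.71, 16.8 and 10.8 with 7l, against 19.9, 11.6 and 15.98 in control cells. Both were dim, both overlapped between groups, and the array of 7l cells that was lowest on the first probe was the highest of its group on the second. Their log2 changes were -0.53 and -0.36. The first was -0.20 without the second array of 7l cells and -0.24 with an offset of 16. Among the 5 subunits, then, RELA and the brightest NFKB2 probe did not overlap between groups, while the second NFKB2 probe did. For scale, groups did not overlap for 28.9% of all genes tested.

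**Figure D3:**
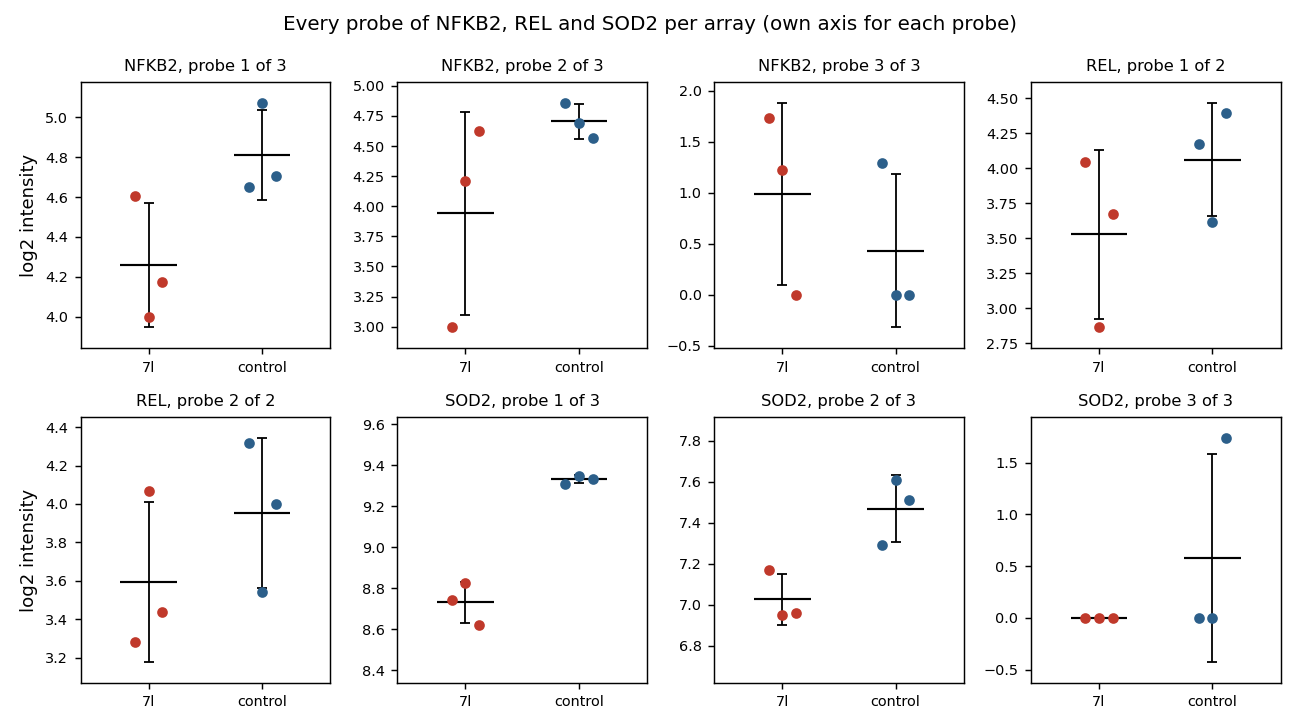
Log2 intensity of each of the 8 probes of NFKB2, REL and SOD2 on the arrays of 7l cells (red, left) and control cells (blue, right), with the mean and 1 SD, each probe on an axis of its own. The first and second SOD2 probes and the first NFKB2 probe separate the groups, both REL probes overlap, and the third NFKB2 and SOD2 probes lie under the background level (2.46 on this scale) on all 6 arrays.

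The feedback inhibitors are direct targets that switch the pathway off. NFKBIA encodes IkappaBalpha, which carries dimers back out of the nucleus. Its probe (ILMN_1773154) gave 1149, 982 and 1173 with 7l, against 1322, 1327 and 1525 in control cells. Every array of 7l cells was below every control array, and the log2 change was -0.34 ± 0.11. TNFAIP3 encodes A20, a ubiquitin-editing enzyme that shuts off signalling upstream of IKK. It measured 92.5, 84.5 and 92.1 with 7l (ILMN_1702691), against 155, 123 and 119 in control cells. The groups were apart, with the first control array above the other two, and the log2 change was -0.55 ± 0.13. NFKBIE encodes IkappaBepsilon, a slower feedback inhibitor. It measured 95.2, 98.9 and 95.8 with 7l, against 85.7, 97.7 and 101 in control cells. The arrays of 7l cells lay inside the control range, and the change was 0.03 ± 0.09.

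EBI3 was first found as a gene induced in B cells by Epstein-Barr virus, and mature myeloid cells make it on Toll-like receptor stimulation. Its single probe (ILMN_1802653) gave 13.7, 14.6 and 8.28 with 7l, against 55.7, 45.3 and 53.5 in control cells. All 6 arrays were above background, and the 2 groups were far apart, with the third array of 7l cells below the other two. The log2 change was -2.12 ± 0.25, or -1.27 with an offset of 16. Of all genes tested, 0.381% had a lower change. SOD2 converts superoxide to hydrogen peroxide in mitochondria and is strongly induced by TNF in many cell types. Its brightest probe (ILMN_2336781) gave 429, 454 and 395 with 7l, against 635, 652 and 646 in control cells. A second probe gave 144, 124 and 124 with 7l, against 156, 195 and 182 in control cells. The groups were apart on both, with log2 changes of -0.60 ± 0.08 for the first and -0.44 for the second. The third SOD2 probe was under background on all 6 arrays.

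The profile over the 6 arrays was also compared with those of all other genes tested, by the root mean square difference of log2 values after each gene was centred on its mean. This describes likeness in 1 contrast of 2 groups and says nothing of function or control. Nearest to EBI3 were FBLN1 (difference 0.21), CXCL10 (0.33) and NRXN2 (0.37). FBLN1 was under background on all arrays of 7l cells and at least 1.47-fold lower there. NRXN2 was above background on 1 of 3 arrays of 7l cells. CXCL10, which encodes an interferon-inducible chemokine, measured 83.6 to 111 with 7l, against 329 to 342 in control cells. Nearest to SOD2 were C1orf53 (0.0371), BPHL (0.0385) and LTB (0.0443). Nearest to NFKBIA were C1orf21 (0.00967), ING2 (0.0276) and GTF2IP1 (0.0283), a GTF2I pseudogene that may share signal with its parent gene. LTB encodes lymphotoxin beta, a ligand of the alternative pathway, and is described next.

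Other genes of the pathway were read from 10 lists without any member. Of their 140 genes, 9 had no named probe here and 31 lay under the intensity filter. Of the 100 tested, 4 were called higher, 3 lower and 93 did not pass, against 2.38% called among all genes, and their median log2 change was -0.01. The lists were chosen with earlier results of these data known. Without any 1 array the counts were 0 to 1 higher and 0 to 2 lower. LTB, TNFRSF14 and IRAK2 below did not pass in a fit over single probes, nor when all probes of a gene were averaged (limma adjusted p = 0.0528, 0.0535 and 0.0522). In the averaged fit the log2 changes of TNFRSF14 and IRAK2 were the same as those below and that of LTB was -0.63.

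Among ligands, 6 of 11 were tested, with 1 lower and 0 higher. LTB measured 718, 781 and 787 with 7l (in ascending order, as for all genes below), against 1090, 1159 and 1212 in control cells. It fell 1.51-fold (log2 -0.60 ± 0.08, limma adjusted p = 0.0370), and its groups did not overlap. The probes of TNF and IL1A, which encode classical inducers, were under background on all 6 arrays. Other ligands were not: IL1B measured 434, 475 and 509 with 7l, against 426, 552 and 591 in control cells (log2 change -0.13 ± 0.15, limma adjusted p = 0.671). IL18, TNFSF13B and TNFSF14 were also above background on all 6 arrays, IL18 at 5663 to 5952 with 7l, against 5597 to 6211 in control cells. Among receptors, 10 of 21 were tested, with 1 higher and 0 lower. TNFRSF14, the receptor for LIGHT known as HVEM, measured 535, 536 and 572 with 7l, against 389, 395 and 411 in control cells. It rose 1.37-fold (log2 0.46 ± 0.07, limma adjusted p = 0.0437). IL1R1, TLR2, TLR4, TLR7 and TLR9 were under background on all 6 arrays. TNFRSF1A, TNFRSF1B, IL1RAP, IL18R1, TLR6 and NOD1 were above it on all 6. TNFRSF1A measured 390 to 429 with 7l, against 361 to 436 in control cells (log2 change 0.003 ± 0.102, limma adjusted p = 0.993).

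Among adaptors and ubiquitin ligases upstream of IKK, 19 of 23 were tested, with 1 higher and 0 lower. IRAK2, a pseudokinase that prolongs Toll-like receptor signalling, measured 80.3, 88.9 and 94.1 with 7l, against 53.5, 55.2 and 60.7 in control cells. It rose 1.55-fold (log2 0.64 ± 0.10, limma adjusted p = 0.0444). None of the 10 tested genes of the IKK complex and its upstream kinases passed. The 2 with the smallest p-values had opposite signs: IKBKG, the regulatory subunit NEMO, had a log2 change of 0.30 ± 0.07 (limma adjusted p = 0.105), and IKBKB, the catalytic subunit IKK2, one of -0.30 ± 0.08 (limma adjusted p = 0.115). The groups did not overlap for either, at 435 to 474 with 7l against 357 to 382 in control cells for IKBKG and at 281 to 307 with 7l against 347 to 376 in control cells for IKBKB. Averaged over both its probes, the log2 change of IKBKB was -0.89 (limma adjusted p = 0.277).

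None of the 4 other IkappaB genes passed. NFKBIZ, a nuclear IkappaB protein, measured -0.23 ± 0.08 (-0.43 with its probes averaged) and NFKBID 0.08 ± 0.08 on the log2 scale (limma adjusted p = 0.218 and 0.616). Of 12 tested deubiquitinases and other feedback genes 0 passed. TAX1BP1, an adaptor through which A20 finds its targets, measured 585, 652 and 711 with 7l, against 426, 444 and 496 in control cells, a log2 change of 0.51 ± 0.11 that missed the threshold (limma adjusted p = 0.0853). OTULIN, which removes linear ubiquitin chains, measured 0.28 ± 0.09 (limma adjusted p = 0.182). Among 10 tested co-regulators 0 passed. SIRT1, a deacetylase of p65, measured 0.44 ± 0.18 and PIAS1, a SUMO ligase, 0.16 ± 0.08 on the log2 scale (limma adjusted p = 0.258 and 0.326).

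Other textbook targets went both ways. Of 26, 18 were tested, with 2 higher, 2 lower and 14 that did not pass, and their median log2 change was -0.02. CXCL8, the neutrophil chemokine IL-8, measured 101, 130 and 202 with 7l, against 17.4, 18.7 and 20.3 in control cells. It rose 7.39-fold (log2 2.88 ± 0.27, limma adjusted p = 0.0223). Its log2 change was 2.16 with an offset of 16 and 2.34 with its probes averaged, and it passed under both. PTGS2, cyclooxygenase 2, measured 216, 224 and 231 with 7l, against 89.0, 113 and 116 in control cells, and rose 2.13-fold (log2 1.09 ± 0.12, limma adjusted p = 0.0273). CXCL10 fell 3.48-fold (log2 -1.80 ± 0.12, limma adjusted p = 0.0121). TNFRSF9, the receptor 4-1BB, measured 5.48, 5.92 and 6.03 with 7l, against 11.98, 12.4 and 12.6 in control cells. Its log2 change was -1.08 ± 0.07 (limma adjusted p = 0.0121), but only 2 of its 3 arrays of 7l cells were above background, by little, and with an offset of 16 the change was -0.38. With a trend and robust prior TNFRSF9 did not pass (limma adjusted p = 0.226). EBI3 and SOD2 thus stood on the side of CXCL10 and TNFRSF9, and opposite to CXCL8 and PTGS2.

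**Figure D4:**
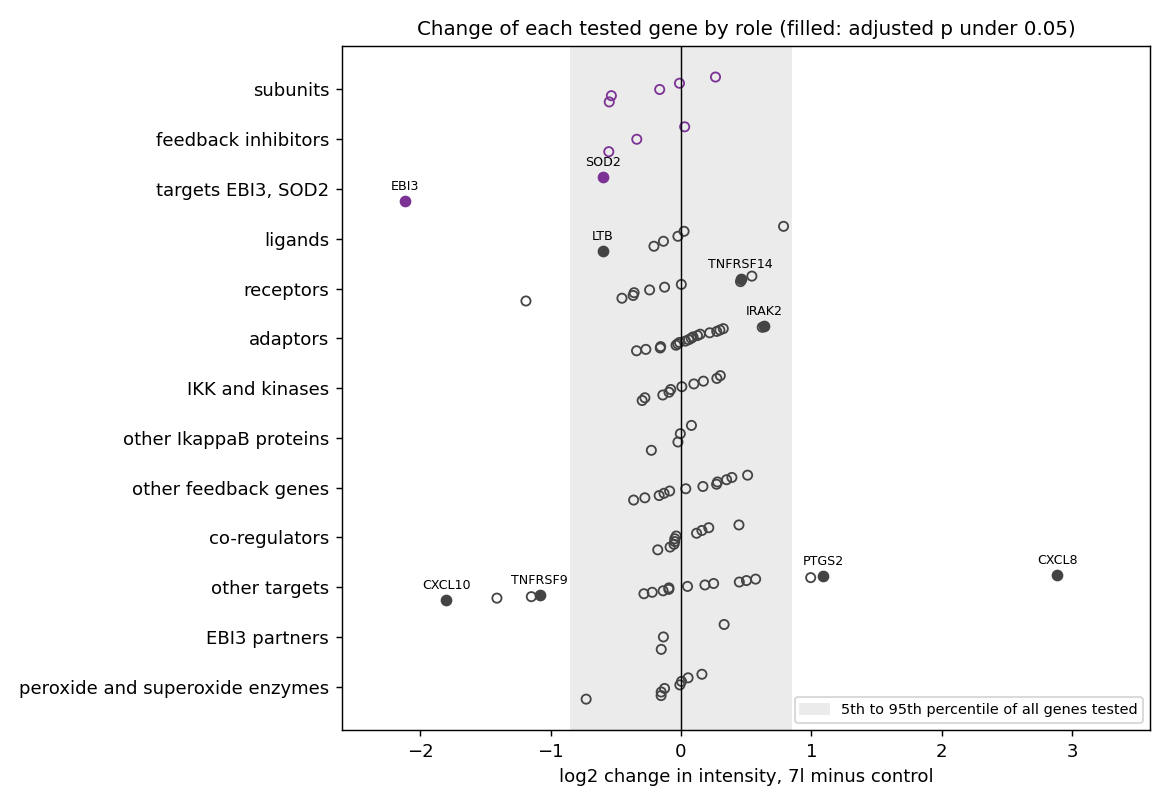
Log2 change in intensity, 7l minus control, of each tested member (purple) and each tested gene of the other lists (dark grey) by role, with called genes filled and named and the 5th to 95th percentile of all genes tested (-0.84 to 0.85) shaded. EBI3 lies at -2.12 and SOD2 at -0.60, while CXCL8 at 2.88 and CXCL10 at -1.80 are the extremes of the other targets.

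The partner chains that EBI3 needs to form a cytokine were looked at next. IL27, which encodes the p28 chain of IL-27, and IL12A, which encodes the p35 chain of IL-35, were under background on all 6 arrays, as were IL12B and IL23A. Of the receptor genes, 3 were tested and 0 passed. IL6ST, the signalling chain gp130, measured 134, 144 and 169 with 7l, against 109, 122 and 124 in control cells (log2 change 0.33 ± 0.12, limma adjusted p = 0.205). IL27RA measured 413, 416 and 440 with 7l, against 449, 471 and 473 in control cells (log2 change -0.13 ± 0.07, limma adjusted p = 0.339). Both had groups that did not overlap.

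Beside SOD2, 8 of 10 other enzymes that remove superoxide or peroxide were tested and 0 passed, with a median log2 change of -0.07. CAT, catalase, measured 111, 121 and 145 with 7l, against 190, 199 and 232 in control cells. Its groups did not overlap, and its log2 change of -0.73 ± 0.14 missed the threshold (limma adjusted p = 0.0717). With the probes of CAT averaged the change was -0.55 (limma adjusted p = 0.131). GPX4, which reduces lipid peroxides, measured 0.16 ± 0.08 (limma adjusted p = 0.339). SOD1, the cytosolic enzyme, measured 3737 to 4389 with 7l, against 3744 to 4334 in control cells, and the SOD3 probe was at the floor of 1 on all 6 arrays.

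The members' changes were recomputed under 11 other settings and with each of the 6 arrays left out. EBI3, SOD2, TNFAIP3, NFKBIA, NFKB2, REL and RELB stayed lower and RELA higher under every setting that tested them, and with each array left out. NFKB1 changed sign under 1 setting and without 3 of the arrays, and NFKBIE without 1. With all its probes above the filter averaged, SOD2 had a log2 change of -0.52 and was not called. In a fit over single probes neither EBI3 nor SOD2 was called. With any 1 array left out, neither EBI3 nor SOD2 was among the genes the limma fit called, which then numbered 6 to 15 higher and 0 to 18 lower over the whole table.

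**Figure D5:**
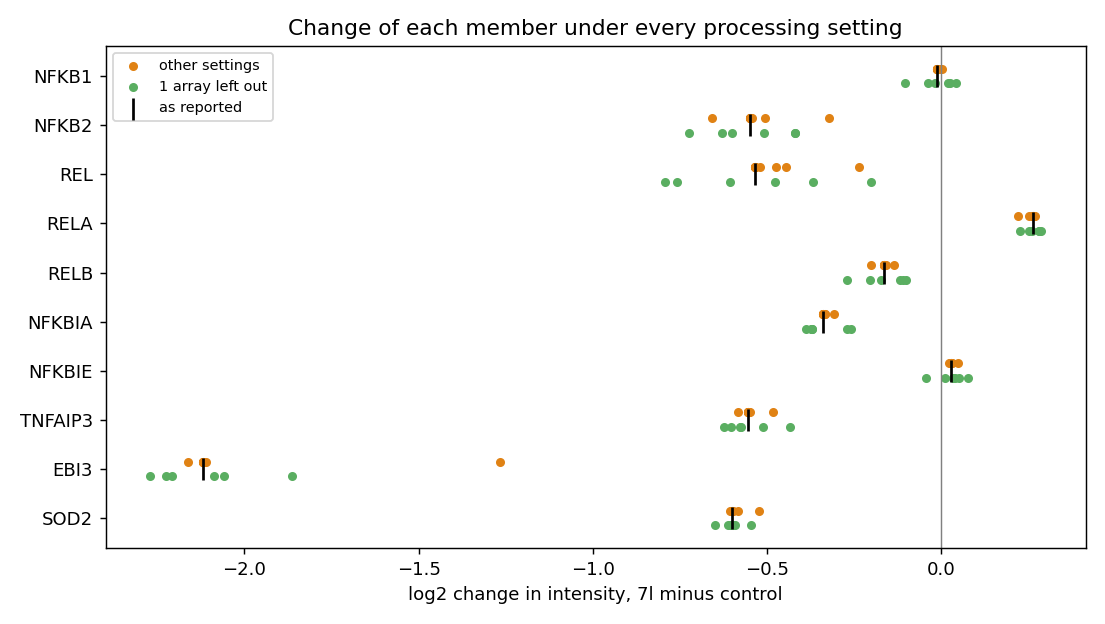
Log2 change, 7l minus control, of each member as reported (black mark), under each other processing setting (orange) and with each array left out (green). The EBI3 values lie between -2.27 and -1.27 and those of RELA between 0.22 and 0.29, while NFKB1 and NFKBIE straddle 0.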

How the data were processed

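Per the labels, biotinylated cRNA was hybridised to 6 Illumina arrays, and the authors' deposited table holds linear intensity for each probe. How the authors corrected background and normalized is not stated in the sources used here. When each array's values are sorted, 97.8% of ranks hold the same intensity on all 6 (relative tolerance 1e-04), the pattern of quantile normalization, so a shift of all transcripts cannot be seen. Probes were named through a platform annotation: of 47322, 30113 carry 1 symbol, 8 several and 17201 are unnamed there. Groups and replicate numbers come from the sample titles.

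Log2 was taken of the values, whose floor is 1. The brightest probe stood for a gene, and 12334 genes whose mean exceeded the median of all probes (log2 1.76) were tested with limma 3.58.1 in R 4.3.3 (lmFit, then eBayes with its default prior, a two-sided test of group with no covariate, 4 residual and 1.24 prior degrees of freedom, Benjamini-Hochberg adjustment, called at an adjusted p under 0.05). The fit was tested on simulated data. A group under background on all arrays has only a bound, its values raised to that level. Genes named outside the members are, per list, up to 4 called genes or, with none called, the 2 with the smallest p, and the 3 nearest profiles of EBI3, SOD2 and NFKBIA. Genes given only as at, under or above background, markers given with values of their own, and SOD1, IL1B, IL18 and TNFRSF1A are named after their values were seen. Members, lists and rules were chosen with earlier results of these data known. Figures were drawn with matplotlib 3.10.9.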

Additional observations from a re-analysis of the deposited data

How the results depend on the processing

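Among all genes tested, 150 were called higher and 143 lower. With no filter the counts were 232 and 205, with a stricter filter at the upper quartile 717 and 620, with an offset of 16 they were 385 and 339, with values raised to background 253 and 234, and with a trend and robust prior 889 and 813. A probe-level fit called 59 and 37. Without 1 array 6 to 15 were higher and 0 to 18 lower. The cause of these shifts was not tested.

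Of the members, 0 were called higher and 2 lower (EBI3 and SOD2). The stricter filter gave 1 higher (RELA) and 3 lower (SOD2, TNFAIP3 and NFKBIA). EBI3 lay under that filter and was not tested there. An offset of 16 gave 3 lower (EBI3, SOD2 and TNFAIP3), and the trend and robust prior 4 lower (EBI3, SOD2, TNFAIP3 and NFKBIA). The mean of a gene's probes gave 1 lower (EBI3) and the probe-level fit 0. Without any 1 array 0 were called in either direction. Of the other pathway genes, 4 were higher and 3 lower. The stricter filter gave 8 higher, the trend and robust prior 9 higher and 5 lower, and the mean of probes and the probe-level fit 2 higher each. Without 1 array 0 to 1 were higher and 0 to 2 lower.

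With the replicate block, the title numbers as a term of the fit, 0 genes were called higher and 0 lower over the whole table, so 0 members and 0 pathway genes. At an unadjusted p under 0.05 that fit had 1104 higher and 1003 lower genes, and the fit without the block 1327 and 1199. The arrays share only a number: deviations from the group means of same-numbered arrays had correlations of -0.0234, -0.00274 and 0.00432 for numbers 1, 2 and 3. No array of 7l cells correlated best with the control array of its own number. Of the control arrays, only the third correlated best with the 7l array of its number. The block leaves 2 residual degrees of freedom. No call of a member, of a gene named from the pathway lists or of a nearest profile changed direction under any alternative. The calls of the markers MYB and CD3D were not followed under the alternatives. Signals near background limit NFKB2, REL, EBI3 and TNFRSF9.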

Other observations

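Several genes that missed the threshold had groups that did not overlap, and they are named here after their values were seen. ICAM1, a leukocyte adhesion molecule, measured 2.75, 7.53 and 11.1 with 7l, against 11.5, 12.6 and 29.9 in control cells. MMP9, a gelatinase, measured 5.83, 9.64 and 9.74 with 7l, against 13.6, 17.9 and 24.5 in control cells. Both are textbook NF-kappaB targets and both were dim, with log2 changes of -1.41 ± 0.65 and -1.15 ± 0.31 (limma adjusted p = 0.306 and 0.132). With an offset of 16 these were -0.53 and -0.50, and 1 array of 7l cells was under background for ICAM1. TLR5, the flagellin receptor, measured 3.16, 5.66 and 9.27 with 7l, against 10.9, 11.8 and 15.2 in control cells (log2 change -1.19 ± 0.42, limma adjusted p = 0.204). Of these, 1 array of 7l cells was under background, and the change was -0.92 with values raised to background and -0.39 with an offset of 16.

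On the other side, BCL10, an adaptor of antigen receptor signalling, measured 19.2, 24.4 and 24.5 with 7l, against 12.7, 14.4 and 17.0 in control cells (log2 change 0.62 ± 0.16, limma adjusted p = 0.116). An offset of 16 left 0.33 of it. PLAU, a textbook target like ICAM1 and MMP9, measured 34.5, 43.3 and 52.5 with 7l, against 22.1, 32.6 and 33.1 in control cells. Its log2 change was 0.57 ± 0.23 (limma adjusted p = 0.258), or 0.39 with an offset of 16. Of the 18 tested textbook targets, called ones included, the groups did not overlap for 6 that were lower and 3 that were higher. RBCK1, a subunit of the linear ubiquitin ligase, measured 124, 128 and 136 with 7l, against 101, 102 and 106 in control cells (log2 change 0.32 ± 0.07, limma adjusted p = 0.0886). IRAK1 measured 734, 744 and 798 with 7l, against 609, 618 and 622 in control cells (log2 change 0.30 ± 0.07, limma adjusted p = 0.0959). Non-overlapping groups were found for 31% of the 100 tested pathway genes and for 28.9% of all genes tested.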
